A study of Homo sapiens with 6 samples.

Results

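Lineage genes of lung and liver-type endoderm were measured on expression arrays after a microRNA mimic had been brought into NCI-H2023, an established human line from a lung adenocarcinoma. The set was named by gene symbol and holds 8 genes: NKX2-1, FOXA1, FOXA2, FOXA3, HNF4A, GATA6, SFTPB and NAPSA. Of these, 7 matched a named probe set, 1 probe set each, out of 17687 genes tested. HNF4A, the nuclear receptor of hepatocyte and gut identity, was not among the named probe sets and was not analysed here. There were 3 groups of 2 samples, lettered A and B: a control, a synthetic mimic of miR-29a-3p and a synthetic mimic of miR-223-3p. Each RNA was given at 0.5 nM by lipid reverse transfection and the medium was renewed at 24 h. All samples come from this 1 line, with no gene deletion or other drug in the labels. The control RNA is named a mimic control by the sample titles but a negative control siRNA by the treatment protocol, and no time of harvest is given. Nothing says that A and B were separate cultures, so the p-values below reflect no more than the scatter of these arrays, and that scatter may be technical. The number of arrays limits the precision.

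NKX2-1 is the homeodomain factor of lung and thyroid identity. Together with the forkhead factors FOXA1 and FOXA2, which open closed chromatin in foregut endoderm, and the zinc finger factor GATA6, it activates the genes of alveolar type 2 cells. Among those genes are SFTPB, which encodes surfactant protein B, and NAPSA, which encodes the aspartic protease napsin A that helps process it. FOXA3 and HNF4A belong to the liver and gut programme, in which FOXA factors and HNF4A switch on genes of plasma proteins. NKX2-1 and napsin A are used as markers of lung adenocarcinoma, and loss of NKX2-1 is known to accompany gastric and liver-type genes in such tumours.

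The mimics stand for mature microRNAs whose natural sequences, as listed by RefSeq (GRCh38.p14), are shown because base pairing of the seed, bases 2 to 8, with a messenger RNA directs silencing. Capitals mark the seed.
hsa-miR-29a-3p: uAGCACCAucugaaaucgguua
hsa-miR-223-3p: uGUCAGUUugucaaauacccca
The seeds AGCACCA and GUCAGUU carry the same base at 2 of their positions. Transcript sequences of the lineage genes were not used here, so seed sites in them were not searched.

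The regulatory sequence of the set is shown for 3 genes, since NKX2-1 and FOXA factors act on the promoters of surfactant genes and on those of each other. The 250 bases before each RefSeq start (GRCh38.p14) were searched on both strands for the core CAAG of NKX2-1 sites, its longer forms CTCAAG and TCAAGT, which overlap the core and each other, and the FOXA motifs TGTTTAC and TGTTTGC. A further FOXA-like string, TGTTTGT, was added after the sequences had been seen. Starts of 7 of the 8 genes, 11 windows in all, were matched, while FOXA2 had no matched start and was not searched. The core CAAG was in 10 of these windows and in 80.9% of all 35116 windows of that length. CTCAAG was found before FOXA1 and NAPSA and in 10.4% of all windows, TCAAGT before NAPSA and in 7.52%, TGTTTAC before NKX2-1 and in 2.98%, and TGTTTGC before NKX2-1 and FOXA1 and in 3.23%. TGTTTGT was found before HNF4A, GATA6 and SFTPB and in 4.56% of all windows. These are matches of letters and not measured binding sites.

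The promoter of FOXA1, the gene with the largest difference from control in this set, lies at chr14:37595250-37595499 on the minus strand. Capitals mark TGTTTGC, here as its reverse complement, and CTCAAG.
FOXA1: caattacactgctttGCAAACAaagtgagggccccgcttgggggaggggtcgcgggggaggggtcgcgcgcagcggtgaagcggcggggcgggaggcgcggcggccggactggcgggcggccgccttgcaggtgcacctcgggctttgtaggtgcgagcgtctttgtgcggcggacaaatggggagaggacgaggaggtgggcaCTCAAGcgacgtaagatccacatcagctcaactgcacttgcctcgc
The promoter of NAPSA at its upstream start lies at chr19:50369303-50369552 on the minus strand. Capitals mark overlapping matches of CTCAAG and TCAAGT as reverse complements.
NAPSA: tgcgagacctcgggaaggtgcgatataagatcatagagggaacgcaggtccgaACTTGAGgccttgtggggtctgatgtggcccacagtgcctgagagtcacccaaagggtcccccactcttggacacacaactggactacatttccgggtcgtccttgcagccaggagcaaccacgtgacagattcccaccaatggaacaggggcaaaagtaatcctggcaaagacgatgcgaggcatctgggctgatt
For SFTPB, 30 bases are shown around a CAAG at chr2:85668296-85668325 and around TGTTTGT, as its reverse complement, at chr2:85668264-85668293, both on the minus strand and both before the downstream start.
SFTPB CAAG: gaaaaggtgggatCAAGcacctggagggct
SFTPB TGTTTGT: tcagagcaaagACAAACActgaggtcgctg
In that promoter the CAAG shown begins 113 bases and the forkhead string 83 bases before the start. Further CAAG matches, not shown, begin 225 and 14 bases before it.

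Most of the set was dim in these cells. The values are deposited log2 signals of RMA, a method that corrects background and brings arrays to a common distribution. As a yardstick for background, 348 olfactory receptor genes, which an epithelial line should lack, had a median mean signal of 3.33 and a 95th percentile of 5.01. Over the 6 samples, 3 of the 7 genes had means above that percentile. FOXA1 at 7.62 lay above 100% of the receptors, FOXA2 at 6.50 above 99.1% and GATA6 at 5.52 above 97.1%. NKX2-1 at 4.97 lay above 94.8%, SFTPB at 4.62 above 92%, FOXA3 at 4.11 above 86.2% and NAPSA at 3.63 above 71.6%. Probes differ in affinity, so these positions say how near a probe set is to background and do not order the amounts of the transcripts. For the dim genes a true difference is pulled toward 0 by background signal. The lung markers NKX2-1, NAPSA and SFTPB that go with the labelled tumour type thus lay within the range of the receptors. Some other lung genes lay higher: of 16 alveolar type 2 genes, 7 had means above the 95th percentile. Among them were the surfactant genes SFTPD, above 98.6% of the receptors, and SFTPA2, above 97.1%, and ABCA3, CTSH and LPCAT1. Among those below it were SFTPC, SFTPA1, LAMP3, SLC34A2 and SFTA2. The keratins of epithelial cells lay far above the range of the receptors, with control means of 16.36 for KRT7, 17.34 for KRT8 and 16.52 for KRT18. Of 10 epithelial markers, 8 had means above the 95th percentile, while CLDN4 and ESRP1 did not.

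NKX2-1 (gene ID 7080, GRCh38 chromosome 14, 36516397 to 36520232) measured 4.91 and 5.04 in control samples A and B, 5.11 and 4.94 with miR-29a-3p, and 5.14 and 4.69 with miR-223-3p. The 3 groups overlapped, and the lowest and the highest sample were both from miR-223-3p. Against control the log2 difference was 0.05 with miR-29a-3p (standard error 0.207, 95% interval -0.42 to 0.52) and -0.06 with miR-223-3p (-0.53 to 0.41). Neither passed the moderated test of limma, with adjusted p of 0.967 and 0.979 over all genes. The group means, 4.98 ± 0.0919, 5.03 ± 0.12 and 4.92 ± 0.318 (SD, n = 2 each) in the order control, miR-29a-3p and miR-223-3p, differ by less than the spread within miR-223-3p.

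**Figure D1:**
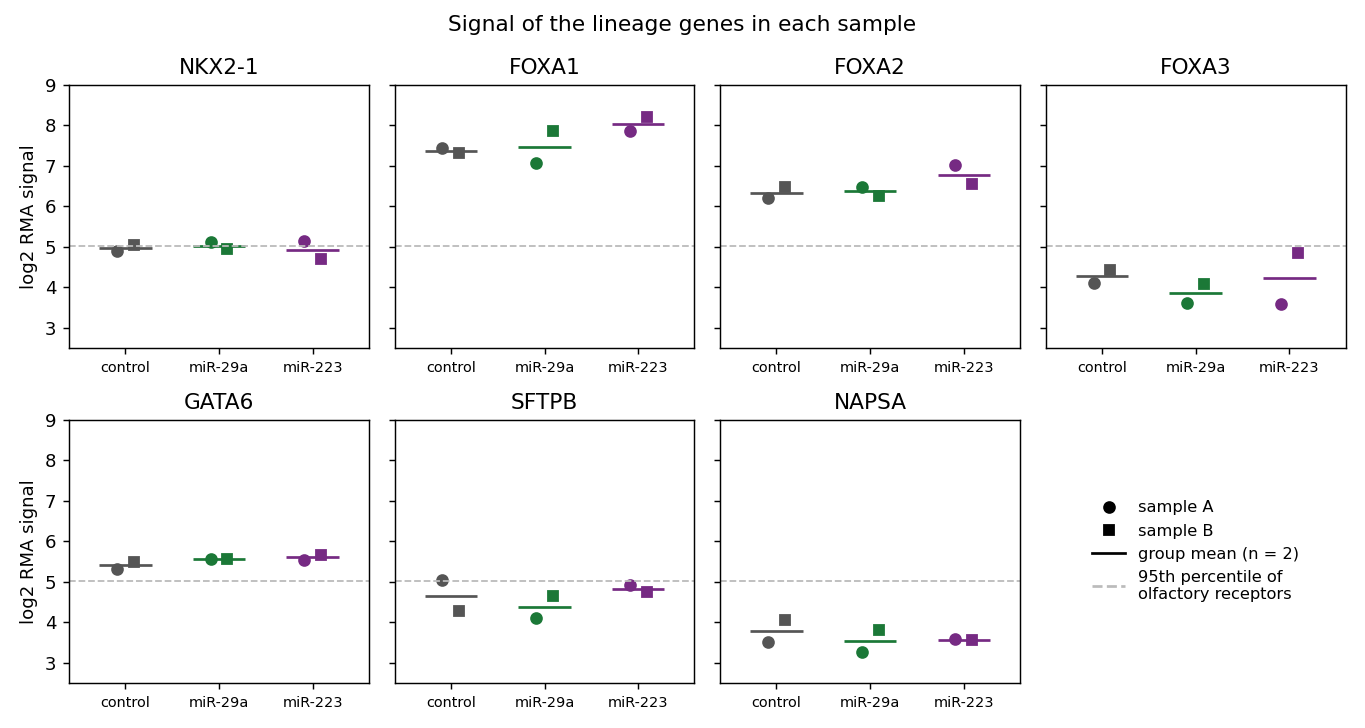
Deposited log2 RMA signal (vertical axis) of the 7 measured lineage genes in control, miR-29a-3p and miR-223-3p samples, with a circle for sample A, a square for sample B and a line for the mean of 2. The dashed line is the 95th percentile of olfactory receptor genes at 5.01; FOXA1, FOXA2 and GATA6 lie above it in each sample, and the miR-223-3p samples of FOXA1 and FOXA2 lie above their controls.

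Among the forkhead factors, FOXA1 and FOXA2 had their highest means with miR-223-3p. FOXA1 (gene ID 3169, chromosome 14, 37589552 to 37595249) measured 7.44 and 7.32 in control, 7.06 and 7.86 with miR-29a-3p, and 7.86 and 8.20 with miR-223-3p. Both miR-223-3p samples lay above both controls, while the miR-29a-3p samples lay on either side of the controls and 1 of them equalled the lower miR-223-3p sample. The mean was 7.38 ± 0.0849 in control and 8.03 ± 0.24 with miR-223-3p (SD, n = 2 each), a 1.57-fold difference. Its log2 size was 0.65 with a standard error of 0.271 and a 95% interval of 0.03 to 1.27. The unadjusted p was 0.0413 and the adjusted p 0.632 in limma, so it did not pass over all genes. With a prior that follows the signal level, called the intensity trend, the adjusted p was 0.477. In absolute size this difference exceeded 97.1% of all genes in the same contrast.

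FOXA2 (gene ID 3170, chromosome 20, 22580998 to 22585490) measured 6.20 and 6.47 in control, 6.49 and 6.25 with miR-29a-3p, and 7.02 and 6.55 with miR-223-3p. Both miR-223-3p samples lay above the other 4, sample B by only a small margin. The log2 difference from control was 0.45 (standard error 0.221, 95% interval -0.05 to 0.95), 1.37-fold, with an adjusted p of 0.699 in limma. Without sample A of miR-223-3p it was 0.215. With miR-29a-3p the difference from control was 0.035 (-0.47 to 0.54).

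FOXA3 (gene ID 3171, chromosome 19, 45864326 to 45873797), the member of the family best known from liver and gut, measured 4.12 and 4.42 in control, 3.61 and 4.09 with miR-29a-3p, and 3.58 and 4.86 with miR-223-3p. The miR-223-3p samples were the lowest and the highest of the 6, with an SD of 0.905, so their mean of 4.22 describes neither. The miR-29a-3p samples lay below both controls, sample B only just. The log2 difference of miR-29a-3p from control was -0.42 (standard error 0.378, 95% interval -1.28 to 0.44), with an adjusted p of 0.812 in limma. It was -0.66 without sample B of miR-29a-3p and -0.18 without sample A.

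GATA6 (gene ID 2627, chromosome 18, 22169589 to 22202528) varied least. It measured 5.31 and 5.49 in control, 5.55 in both samples with miR-29a-3p, and 5.54 and 5.66 with miR-223-3p. Each mimic sample lay above both controls. The log2 difference from control was 0.15 with miR-29a-3p (95% interval -0.25 to 0.55) and 0.20 with miR-223-3p (-0.20 to 0.60), with adjusted p of 0.864 and 0.859 in limma. Without sample A of the control they were 0.06 and 0.11, and without sample B 0.24 and 0.29. Both differences are measured from the same 2 controls.

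The genes that NKX2-1 and FOXA factors activate in alveolar cells came next. SFTPB (gene ID 6439, chromosome 2, 85657307 to 85668741) measured 5.04 and 4.27 in control, 4.09 and 4.64 with miR-29a-3p, and 4.91 and 4.75 with miR-223-3p. The controls were the widest pair and enclosed both miR-223-3p samples. Against control the log2 difference was -0.29 with miR-29a-3p (95% interval -0.94 to 0.36) and 0.175 with miR-223-3p (-0.48 to 0.83), with adjusted p of 0.831 and 0.949 in limma. Without sample A of the control the miR-29a-3p difference was 0.095, and without sample B it was -0.675.

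NAPSA (gene ID 9476, chromosome 19, 50358477 to 50369302) measured 3.52 and 4.05 in control, 3.26 and 3.81 with miR-29a-3p, and 3.58 and 3.56 with miR-223-3p. All samples lay within 0.79 of each other on the log2 scale and the groups overlapped. The differences from control were -0.25 with miR-29a-3p (95% interval -0.82 to 0.32) and -0.215 with miR-223-3p (-0.79 to 0.36), with adjusted p of 0.834 and 0.908 in limma.

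**Figure D2:**
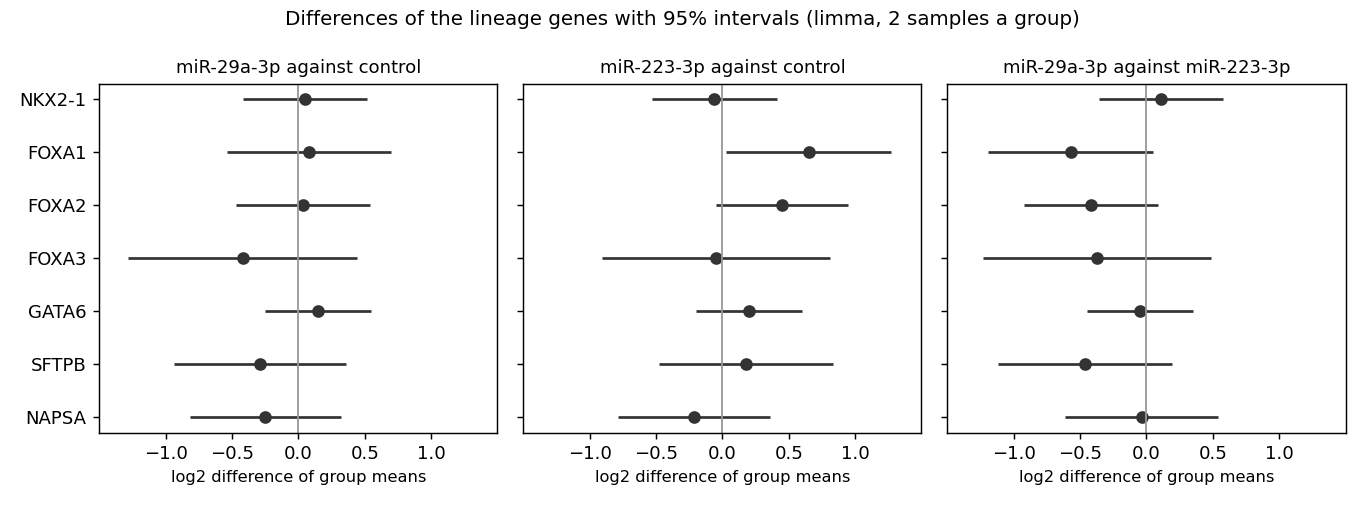
Log2 difference of group means (horizontal axis) for each of the 7 lineage genes in the 3 contrasts, with points for the difference and lines for the 95% interval of the moderated limma fit, not adjusted for multiple genes. The interval of FOXA1 for miR-223-3p against control, 0.03 to 1.27, is the one that does not reach 0.

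Counted together, 0 of the 7 genes passed with miR-29a-3p against control at an adjusted p of 0.05 in limma, where 0.0113% of all genes passed. With the intensity trend it was also 0, against 1.03% of all genes, which is 182 genes and fell to between 45 and 81 without 1 sample. At an unadjusted p under 0.05 it was 0 in limma, against 8.86%, and 0 with the trend, against 9.97%. GATA6 was the 1 gene with both mimic samples above both controls, against 19% of all genes, and FOXA3 the 1 gene with both below, against 18.8%, so that 2 of 7 did not overlap, against 37.8%. The median log2 difference of the 7 was 0.035, beside 0 for all genes, and their median absolute difference was 0.15, beside 0.18.

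With miR-223-3p against control, 0 of 7 passed in limma, where 0% of all genes passed, and 0 with the intensity trend, where 0.684% did, 121 genes that fell to between 42 and 57 without 1 sample. At an unadjusted p under 0.05 there was 1, FOXA1, in limma, against 7.59% of all genes, and the same gene with the trend, against 8.52%. In FOXA1, FOXA2 and GATA6 both mimic samples lay above both controls, against 18.7% of all genes, and in 0 genes both lay below, against 18.2%, so that 3 of 7 did not overlap, against 36.9%. The median difference was 0.175, beside 0 for all genes, and the median absolute difference 0.2, beside 0.17. These 3 are also the genes whose means lay above the 95th percentile of the olfactory receptors.

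A direct contrast of the mimics followed. With miR-29a-3p, 6 of the 7 genes had lower means than with miR-223-3p and NKX2-1 the higher one, by 0.11. None passed: 0 of 7 did in limma, where 0.221% of all genes passed, and 0 with the intensity trend, where 1.94% did, 344 genes that fell to between 141 and 217 without 1 sample. At an unadjusted p under 0.05 there were 0 in limma, against 10.3%, and 1 with the trend, FOXA1, against 11.5%. FOXA1 differed by -0.57 (95% interval -1.19 to 0.05, adjusted p = 0.534 in limma), SFTPB by -0.465 (-1.12 to 0.19, adjusted p = 0.655) and FOXA2 by -0.415 (-0.92 to 0.09, adjusted p = 0.586). Leaving out 1 sample of miR-29a-3p or miR-223-3p moved FOXA1 between -0.97 and -0.17, set by samples B and A of miR-29a-3p. It moved SFTPB between -0.74 and -0.19, set by the same samples, and FOXA2 between -0.65 and -0.18, set by samples B and A of miR-223-3p. FOXA2 and SFTPB were the 2 genes with both miR-29a-3p samples below both miR-223-3p samples, against 19.5% of all genes, and 0 genes lay the other way, against 19.2%. Together 2 of 7 did not overlap, against 38.7% of all genes. The median difference of the 7 was -0.37, beside -0.005 for all genes, and their median absolute difference 0.37, beside 0.185. The 95% interval of each of the 7 differences held 0, and that of FOXA3, the widest, ran from -1.23 to 0.49.

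The genes around the set were taken from 11 lists of other endoderm factors, alveolar and airway genes, NKX2-1-linked genes, liver and gut genes and markers of other cell types. Of 148 genes on them outside the set, 137 were tested. In limma 0 of them passed in any of the 3 contrasts, with 20, 15 and 17 at an unadjusted p under 0.05 for miR-29a-3p against control, miR-223-3p against control and between the mimics, where 8.86%, 7.59% and 10.3% of all genes had one. With the intensity trend 4, 7 and 8 passed in the same order, which is 2.92%, 5.11% and 5.84% of them, beside 1.03%, 0.684% and 1.94% of all genes. Those called between the mimics were ETV5, FGB, FGG, CP, ANXA10 and CD68, higher with miR-29a-3p, and EPCAM and CDH1, higher with miR-223-3p. The trend lowered the standard error of very bright genes such as FGB, from 0.17 to 0.0915. It raised that of the dim NKX2-1 from 0.207 to 0.282. The lists were not matched to all genes in signal level, so these shares are not compared like with like. The lists were chosen with earlier results known, so these counts are a description.

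Alveolar type 2 genes were counted with 3 genes of the set among 16. With miR-29a-3p 11 were above control and 5 below (median 0.183, beside 0 for all genes), and with miR-223-3p 7 above and 9 below (median -0.07). Of the surfactant genes, SFTPC was flat and SFTPA2 scattered. SFTPC measured 3.80 and 4.04 in control, 4.05 and 3.92 with miR-29a-3p, and 3.53 and 3.81 with miR-223-3p. SFTPA2 measured 5.13 and 5.20, 6.20 and 4.94, and 5.51 and 5.93 in the same order, so that the miR-29a-3p samples enclosed all others. SFTA2 measured 4.1 and 3.96, 3.67 and 3.48, and 4.05 and 4.25. Its miR-29a-3p samples were the lowest (unadjusted p = 0.037 and adjusted p = 0.535 against control in limma), at a level within the range of the receptors. LPCAT1 differed from control by -0.71 with miR-223-3p (unadjusted p = 0.0208 and adjusted p = 0.573 in limma). With the trend 1 of the 16 was called in each contrast, beside 1.03%, 0.684% and 1.94% of all genes. The list's members called with the trend were ETV5, an ETS factor of alveolar type 2 cells that FGF and MAPK signals induce, and DRAM1, a lysosomal membrane protein. ETV5 measured 9.02 and 9.06 in control, 9.92 and 9.84 with miR-29a-3p, and 8.97 and 8.87 with miR-223-3p. It was higher with miR-29a-3p than with control by 0.84 (adjusted p = 0.0289 with the trend and 0.194 in limma without it), and the call was lost without any 1 of the 4 samples (adjusted p from 0.137 to 0.198 with the trend). Against miR-223-3p it was higher by 0.96 (adjusted p = 0.00567 with the trend, 0.0871 without), a call that needed both sample A of miR-29a-3p and sample B of miR-223-3p. DRAM1 was higher with miR-223-3p by 0.99 (adjusted p = 0.018 with the trend, 0.319 without), and lost its call without sample A of the mimic or sample B of the control.

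Genes linked to NKX2-1 gave 0 calls in limma and 0 with the trend among 10 tested in each contrast, where 0, 3 and 1 had an unadjusted p under 0.05 in limma, beside 8.86%, 7.59% and 10.3% of all genes. Their median difference was 0.193 with miR-29a-3p, with 8 above control and 2 below, and 0.063 with miR-223-3p, with 5 on each side. SFTPA1, SFTPC, ABCA3 and LAMP3 are also on the alveolar type 2 list, HOPX on the alveolar type 1 list and SCGB3A2 on the airway list. The medians of these lists are therefore not separate results, and all are measured from the same controls. ABCA3, the lipid transporter of lamellar bodies, measured 7.51 and 7.89 in control, 7.49 and 7.29 with miR-29a-3p, and 7.26 and 7.12 with miR-223-3p. HOPX, a homeodomain protein without DNA binding that marks alveolar type 1 cells, measured 4.43 and 4.05, 4.45 and 4.39, and 4.85 and 5.10 in the same order. Its miR-223-3p samples were the highest, at a level near background. ROR1, a receptor-like kinase, measured 9.99 and 10.63, 10.52 and 10.80, and 10.98 and 10.95.

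Alveolar type 1 genes (10 tested) and airway genes (11 tested) gave 0 calls in limma and with the trend in each contrast. At an unadjusted p under 0.05 in limma there were 0, 2 and 1 of the first list and 1, 0 and 1 of the second, in the order miR-29a-3p against control, miR-223-3p against control and between the mimics, beside the same shares of all genes. The airway gene was BPIFA1, which differed from control by -0.92 with miR-29a-3p (unadjusted p = 0.00253 and adjusted p = 0.262 in limma). Of the 25 other endoderm factors tested, 11 were above and 14 below control with miR-29a-3p (median -0.07), and 10 above, 14 below and 1 level with it with miR-223-3p (median -0.035). ETV5, which this list shares with the alveolar one, was the 1 called with the trend. Its calls were with miR-29a-3p against control and between the mimics, where 1.03% and 1.94% of all genes were called. CDX2, the intestinal homeodomain factor, measured 6.41 and 6.20 in control, 5.67 and 5.59 with miR-29a-3p, and 6.12 and 6.17 with miR-223-3p. Its miR-29a-3p samples were the lowest but it was not called. CEBPB, a factor of liver and stress responses, measured 9.97 and 10.38, 9.06 and 9.78, and 9.71 and 9.76. Of the 25 factors, 16 had means above the 95th percentile of the olfactory receptors. The liver factors CEBPA and GATA4 lay at 3.40 to 3.71 and 3.32 to 3.53 in group means, within the range of the receptors. HNF4G, the close relative of HNF4A, lay at 10.04 to 10.27, above all of them, as did NR5A2, HHEX and ONECUT2.

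Liver plasma protein genes, known targets of HNF4A and FOXA factors, were bright for some members, 8 of 20 lying above the 95th percentile of the olfactory receptors. In limma 0 of the 20 passed in any contrast. At an unadjusted p under 0.05 there were 4 with miR-29a-3p against control, 5 with miR-223-3p against control and 3 between the mimics. The shares of all genes were 8.86%, 7.59% and 10.3%. With the trend, 3 members were called lower with miR-223-3p (FGA, FGB and CP), where 0.684% of all genes were called. Another 2 were called lower with miR-29a-3p (ALB and RBP4), where 1.03% were, and 0 were called higher with either. The medians of the list, -0.03 with miR-223-3p and 0.065 with miR-29a-3p, stayed near 0. Between the mimics, where 1.94% of all genes were called, FGB, FGG and CP were called higher with miR-29a-3p, by 0.51, 0.375 and 0.625. Their adjusted p was 0.00368, 0.0456 and 0.0491 with the trend, and 0.347, 0.513 and 0.278 in limma without it. The calls of FGG and CP were lost without any 1 sample, and that of FGB without sample B of miR-29a-3p. The fibrinogen chain FGB measured 16.07 and 16.05 in control, 15.91 and 16.01 with miR-29a-3p, and 15.45 in both samples with miR-223-3p. It fell 1.53-fold with miR-223-3p (adjusted p = 0.00203 with the trend, 0.451 in limma without it), and the call held without any 1 of the 4 samples (adjusted p with the trend up to 0.0411). FGA, another fibrinogen chain, differed by -0.395 (adjusted p = 0.0368 with the trend, 0.648 without), a call lost without any 1 sample. CP, ceruloplasmin, measured 11.33 and 11.19 in control, 10.74 and 10.52 with miR-29a-3p, and 10.04 and 9.97 with miR-223-3p, the groups standing apart. It fell 2.39-fold with miR-223-3p (adjusted p = 0.000528 with the trend, 0.169 in limma without it), and the call held without any 1 sample. RBP4, the plasma carrier of retinol, measured 15.29 and 15.37 in control, 14.59 and 14.69 with miR-29a-3p, and 14.93 and 14.97 with miR-223-3p. It fell 1.61-fold with miR-29a-3p (adjusted p = 0.00124 with the trend, 0.28 in limma without it), also without any 1 of the 4 samples. ALB measured 8.50 and 7.41 in control, 6.06 and 6.77 with miR-29a-3p, and 6.77 and 7.06 with miR-223-3p. Its call with miR-29a-3p (adjusted p = 0.0247 with the trend, 0.258 without) was lost without sample A of the control or either sample of the mimic.

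Gastric and intestinal genes had a median of 0.01 with miR-29a-3p over 21 genes, against -0.005 with miR-223-3p, and 4 of them lay above the 95th percentile of the olfactory receptors. ANXA10, an annexin of gastric epithelium, was the 1 called with the trend. Its calls were with miR-223-3p against control and between the mimics, where 0.684% and 1.94% of all genes were called. It measured 11.22 and 11.51 in control, 11.28 and 11.22 with miR-29a-3p, and 10.38 in both samples with miR-223-3p. It fell 1.98-fold with miR-223-3p (adjusted p = 0.00282 with the trend, 0.267 in limma without it), a call lost without sample B of the control, at 0.0836. GPA33, an intestinal surface antigen, measured 3.50 and 3.22, 4.0 and 4.52, and 3.63 and 3.59, and was not called.

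**Figure D3:**
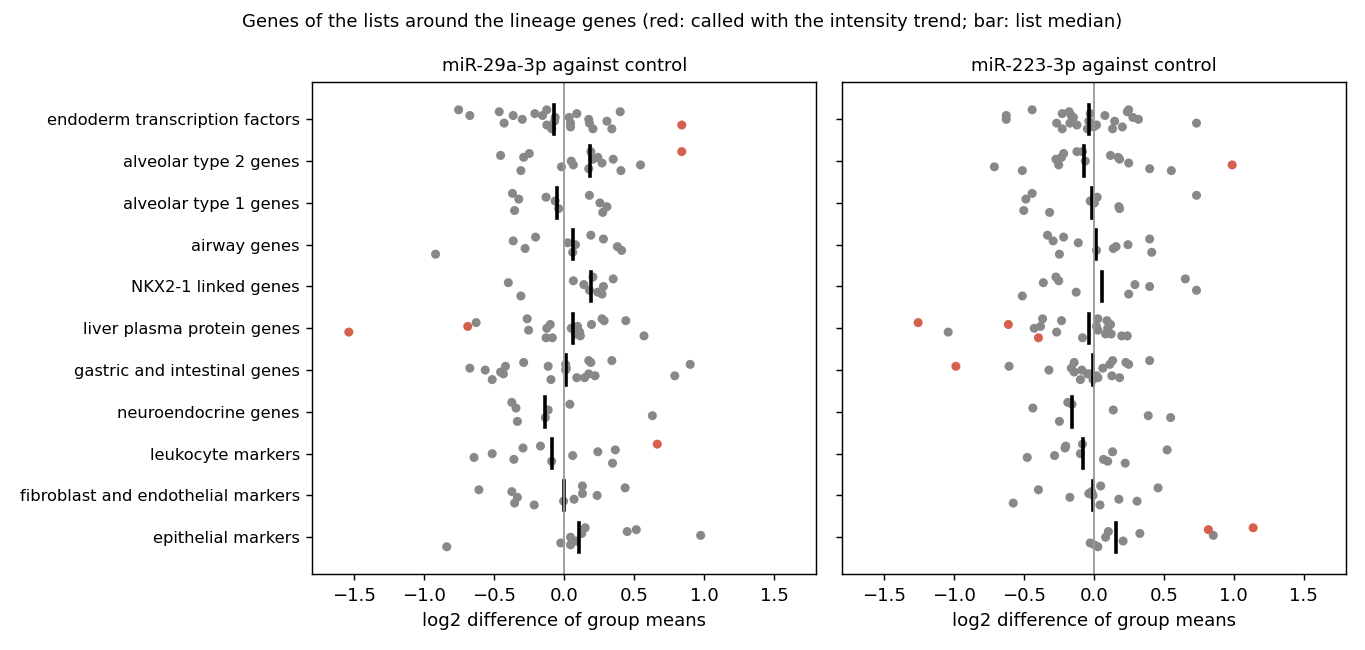
Log2 difference of group means from control (horizontal axis) for each gene of the 11 lists, with miR-29a-3p on the left and miR-223-3p on the right; red points were called with the intensity trend, and black bars are list medians, which lie between -0.155 and 0.193. The red points lie to the left of 0 for the liver list and to the right for the epithelial list.

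Of 10 epithelial markers, 8 lay above control with miR-29a-3p (median 0.105) and 9 with miR-223-3p (median 0.157), both measured from the same controls. With miR-223-3p EPCAM and KRT19 were called higher with the trend, where 0.684% of all genes were called. They differed from control by 1.14 and 0.82 (adjusted p = 0.00201 and 0.00586 with the trend, 0.199 and 0.368 in limma without it). KRT19 lost its call without sample A of the control or of the mimic. CDH1, the adhesion protein E-cadherin, measured 10.79 and 10.82 in control, 10.26 and 9.67 with miR-29a-3p, and 11.16 and 10.51 with miR-223-3p. It differed by -0.84 between miR-29a-3p and control, not past the test, and by -0.87 between the mimics (adjusted p = 0.036 with the trend, 0.325 in limma without it), a call lost without sample B of miR-29a-3p or sample A of miR-223-3p. Whether these markers and FOXA1 move together was not tested. Markers of other cell types were summarised by their mean signal. The mean signal of 11 leukocyte markers was 5.34 and 5.23 in control, 5.23 and 5.26 with miR-29a-3p, and 5.27 and 5.25 with miR-223-3p. That of 11 fibroblast and endothelial markers was 4.46 and 4.47, 4.53 and 4.24, and 4.37 and 4.54. Of these, 5 leukocyte and 2 stromal markers lay above the 95th percentile of the olfactory receptors. The leukocyte ones were CD14, CD68, CSF1R, CD79A and NKG7, and the stromal ones COL1A2 and VWF. PTPRC, CD3E, COL1A1 and PECAM1 were among those below it. CD68, a lysosomal protein that is not limited to leukocytes, was called higher with miR-29a-3p than with control, where 1.03% of all genes were called with the trend. It differed by 0.665 (adjusted p = 0.0489 with the trend, 0.307 in limma without it), and lost the call without any 1 sample. Neuroendocrine genes (7 tested) gave 0 calls in limma and with the trend, with 0, 0 and 1 at an unadjusted p under 0.05 in limma in the order of contrasts above, beside 8.86%, 7.59% and 10.3% of all genes.

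The genes whose values followed NKX2-1 and SFTPB most closely were found by the root mean square difference of the 6 values, each gene centred on its own mean, among genes with a mean signal of at least 5 and an SD of at least 0.5 times that of the gene followed. For NKX2-1 they were TRAPPC2, DNAJB6 and NBPF10, at 0.0265, 0.0321 and 0.035 among 10768 candidates. NKX2-1 itself had an SD of 0.165 over the samples, so this likeness is between small movements. For SFTPB they were UBXN11, FGF9 and TMCO4, at 0.0932, 0.111 and 0.119 among 7134 candidates, against an SD of 0.369. UBXN11, the closest, measured 7.01 and 6.35 in control, 6.21 and 6.53 with miR-29a-3p, and 6.89 and 6.61 with miR-223-3p, which like SFTPB is widest apart within the control group.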

How the data were processed

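Total RNA of 6 NCI-H2023 samples was labelled with biotin and hybridised to arrays, with 1 array for each, per the labels' protocols. Analysed were the log2 signals deposited by the authors, made with RMA and annotated with hg38, per the submitters' processing notes, which name no version of RMA. RMA makes arrays alike in distribution, so a change in total messenger RNA cannot be seen. The array medians lay between 6.21 and 6.23. Over all genes, the SD of the log2 difference was 0.337 between the controls, 0.374 between the miR-29a-3p samples and 0.357 between the miR-223-3p samples. Between arrays of unlike groups it ran from 0.358 to 0.42, so the groups stood little further apart than their own samples. Of 21448 probe sets, 17709 had 1 gene in the platform annotation, 0 had several and 3739 stayed unnamed. RefSeq held all 17709 identifiers, and the probe set with the highest mean was kept for each of 17687 genes.

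Samples were grouped by title. The 3 contrasts were tested with limma 3.58.1 (R 4.3.3; lmFit and eBayes, constant prior, 1 fit of all 6 samples, 3 residual degrees of freedom) with Benjamini-Hochberg adjustment over all genes at 0.05. The alternatives are given in the closing section. The procedure was run on simulated data with independent normal scatter for each gene. That run says nothing of scatter shared by genes, and its outcome is not used here. The genes of the set, the lists and the tests were chosen with earlier results of these data known. All genes of the set are named, with ALB, any list gene called and some of the list genes with the smallest p. Up to 4 such genes from each list were planned, which was not kept for every list. The list genes whose trend calls are given, and the other list genes whose levels are given, were added after their values were seen. A planned comparison of forkhead domains was not made, since protein sequences were not used here.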

Additional observations from a re-analysis of the deposited data

How the results depend on the processing

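The 21 log2 differences of the lineage genes were recomputed under 8 other settings, which were the intensity trend, a robust prior, the replicate block, leaving out genes with a mean signal under 5, centring arrays on their medians, quantile normalization a second time, fitting only the groups compared and using all probe sets, and without each of the 6 samples in turn. A sample was left out only of the contrasts that hold its group. The count of lineage genes called was 0 in each contrast under each setting run for it, and the genes' adjusted p in limma lay between 0.352 and 0.996. The filter on dim genes left out NKX2-1, FOXA3, SFTPB and NAPSA. Of 240 recomputed differences, 222 kept their direction, and the 18 that turned were all from leaving out 1 sample.

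Over the samples left out, against control with miR-29a-3p NKX2-1 ran from -0.035 to 0.135, FOXA1 from -0.32 to 0.48, FOXA2 from -0.1 to 0.17, SFTPB from -0.675 to 0.095 and NAPSA from -0.525 to 0.025. With miR-223-3p NKX2-1 ran from -0.285 to 0.165, FOXA3 from -0.69 to 0.59, SFTPB from -0.21 to 0.56 and NAPSA from -0.48 to 0.05. Between the mimics NKX2-1 ran from -0.115 to 0.335, FOXA3 from -1.01 to 0.27, GATA6 from -0.11 to 0.01 and NAPSA from -0.31 to 0.24. Each of these differences crossed 0. FOXA1 and FOXA2 with miR-223-3p kept their sign, at 0.48 to 0.82 and 0.215 to 0.685. A lone sample left in a group is assumed to vary like the others.

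The letters A and B were not taken to pair the samples: deviations from group means correlated across genes at 0.068, 0.0039 and 0.134 for the 3 pairs of groups. With the replicate block the differences were the same, FOXA1 at 0.65 with an adjusted p of 0.573 in limma, and over all genes 0 were called in each contrast, where 2, 0 and 39 were called without it. Dim signals limit NKX2-1, FOXA3, SFTPB and NAPSA, which lie within the range of olfactory receptor genes. The trend calls of list genes without each sample were added after seeing the data.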
